A study of Phalaenopsis equestris with 4 samples.

Results

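In the butterfly orchid Phalaenopsis equestris, 68 of 221878 assembled contigs were at 20 FPKM or more in root, stem and leaf while flower lay at least 8-fold below the lowest of these 3 tissues. FPKM is the usual measure of fragments per length of transcript and per size of library, and folds are given on the FPKM + 1 scale unless said otherwise. Contigs that the authors had matched to heat shock proteins or R genes (plant disease resistance genes) were left out by the rule, although none of them met it. The levels in all 4 tissues thus chose the contigs, so the low flower values are a description and not a finding. The plants were 3 years old, and the RNA of each organ (root, stem, leaf, flower) was made into a single library. The labels give neither the number of plants in a library nor how they were grown. With single libraries there is no replicate check, no standard deviation and no p-value for any difference below, and each comparison is between libraries.

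Phalaenopsis orchids are epiphytes. Their aerial roots carry a spongy outer layer, the velamen, over a cortex with chloroplasts, the stem is short, and the thick leaves take up carbon dioxide by crassulacean acid metabolism. The flower is built of sepals, petals, a lip and a column that joins the male and female organs. The libraries do not separate the cell types of these organs, and in such whole-organ RNA fewer cells of a type cannot be told apart from less RNA per cell.

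The contigs are fragments assembled from the same reads without a genome. The assembler numbers them by component (c), then by gene within the component (g), then by isoform (i), so that contigs of the same gene share much of their sequence. The 68 contigs belonged to 64 assembler genes in 57 components. None of the 68 could be tied to an entry of the RefSeq gene table by its identifier, so no gene name, function or sequence is given for them, and the labelled tissues could not be checked against marker genes. Of the 68, 47 were the only contig of their gene, or 69.1%, against 74.8% of all 3255 contigs that reached 20 FPKM in root, stem and leaf.

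These 3255 contigs are the background for the rule. Among them the 8-fold criterion was met by 2.09%, which is the 68 contigs themselves. Over the 3255, with the 68 included, flower was the lowest of the 4 tissues in 1328, or 40.8%. The median of the lowest vegetative tissue over flower was -0.21 on the log2 scale. This median sets the lowest of 3 tissues against flower alone, which lowers it, and no minimum was set for flower. Root alone was at least 8-fold over flower in 154 of the 3255 (4.73%), stem in 93 (2.86%) and leaf in 245 (7.53%). A difference of this size was seen in a single vegetative tissue for 184 contigs, in 2 tissues for 52 and in all 3 for 68. The 68 were thus 73.1% of the contigs that passed over flower in stem, 44.2% of those that passed in root and 27.8% of those that passed in leaf. A contig at least 8-fold higher in flower than in each vegetative tissue was seen 4 times among the 3255, or 0.123%. The 3255 had to reach 20 FPKM in root, stem and leaf, with no minimum in flower. Contigs high in flower and low elsewhere were thus left out beforehand, so this count cannot be set against the 68.

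**Figure D1:**
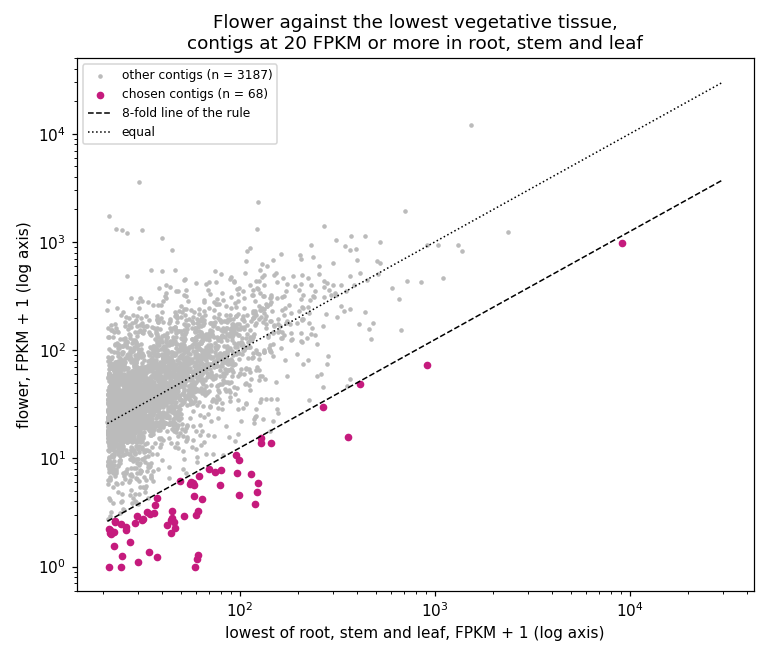
Flower level against the lowest of the root, stem and leaf levels, both as FPKM + 1 on log axes, for contigs at 20 FPKM or more in root, stem and leaf, with 1 point per contig. The 68 chosen contigs lie under the dashed 8-fold line, most of them below 5 FPKM in flower, and 1 contig stands far to the right at 970 FPKM in flower.

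Across the 68 contigs, root values ran from 20.4 to 27425 FPKM with a median of 68.4. Stem ran from 21.6 to 9099 FPKM with a median of 58.7, and leaf from 20.4 to 15917 FPKM with a median of 91.2. Flower ran from 0 to 970 FPKM with a median of 2.08. Over all 3255 contigs the medians were 48.5 FPKM (root), 42.1 (stem), 83.2 (leaf) and 43.2 (flower), and since the rule used these levels the comparison is a description. In flower, 11 of the 68 were below 1 FPKM, 39 between 1 and 5, 14 between 5 and 20, and 4 at 20 or more. The lowest vegetative tissue exceeded flower by a median of 3.56 on the log2 scale, which is 11.8-fold, with contigs at 0 in flower included. Among contigs above 0 in flower it exceeded flower by at most 5.69. Among the 65 contigs above 0 in flower the gap was at least 16-fold in 21 and at least 32-fold in 2.

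The precision of these values differed between libraries. The tables give no read totals, but the lowest values of pairs of libraries stood in ratios of small whole numbers. Read from these ratios, the same FPKM value corresponded to 1.59 stem reads, 1.78 flower reads and 0.0602 leaf reads for each root read. Flower values therefore rested on the most reads at a given FPKM and leaf values on the fewest, by a factor of 29.6 between the 2 libraries. A leaf value of 20 FPKM, the minimum of the rule, had as many reads as a flower value of 0.675 FPKM. Over the 65 contigs with a flower value above 0, the median was 1.16 leaf reads for each flower read, and 30 contigs had fewer reads in leaf than in flower. Of those 30, root was the highest tissue for 24, stem for 3 and leaf for 3. The median over low contigs of the value of 1 read was 0.398 FPKM for root, 0.250 for stem, 6.61 for leaf and 0.223 for flower, at which 20 FPKM would be 50.3 reads for root, 79.9 for stem and 3.02 for leaf. The contigs' own lengths were not used here, so their read numbers and counting intervals were not computed.

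**Figure D2:**
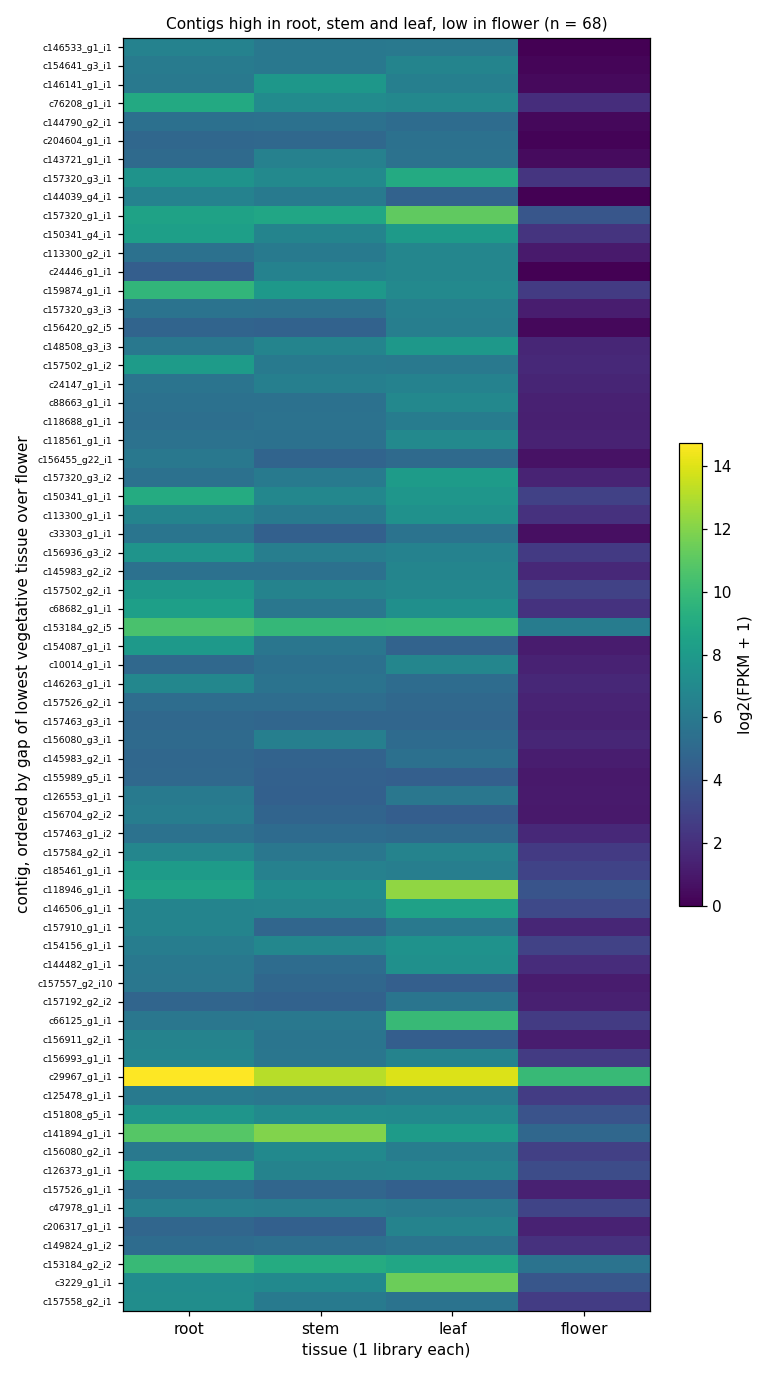
Level of each of the 68 contigs (rows) in each tissue (columns, 1 library each), as log2(FPKM + 1) in colour, ordered from the largest to the smallest gap between the lowest vegetative tissue and flower. Flower is the darkest column in every row, and c29967_g1_i1 is the brightest row, with 970 FPKM in flower.

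Contig c146533_g1_i1, listed at 0 in flower, had 91.5, 57.8 and 60.8 FPKM in root, stem and leaf, the highest lowest-vegetative level among the contigs at 0. Its 3 vegetative levels lay close together, within 0.65 on the log2 scale. The widest gap above 0 in flower was that of c154641_g3_i1, with 69.0, 59.2 and 99.5 FPKM in root, stem and leaf against 0.170 FPKM in flower, a gap of 5.69 on the log2 scale. Summed over its 6 isoforms, gene c154641_g3 had 174, 135 and 195 FPKM in root, stem and leaf against 11.8 in flower. The summed gap was 3.41. Contig c146141_g1_i1 had 60.1, 225 and 82.5 FPKM in root, stem and leaf against 0.276 FPKM in flower, a gap of 5.58. The leaf values of c154641_g3_i1 and c146141_g1_i1 were backed by more reads than their flower values, at 19.8 and 10.1 leaf reads for each flower read. The flower value of c154641_g3_i1 was, however, below 0.223 FPKM, the median value of 1 flower read over low contigs. That median does not allow for the length of the contig, so its flower reads may be very few but were not computed.

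Among the next in order, c76208_g1_i1 was the one with the strongest root level, at 502 FPKM in root, 136 in stem and 119 in leaf against 2.82 in flower. Contig c144790_g2_i1 was nearly level across the plant body, with 42.6, 44.5 and 36.5 FPKM in root, stem and leaf against 0.226 in flower. Its gap of 4.94 on the log2 scale became 3.55 when the isoforms of gene c144790_g2 were summed. Contig c204604_g1_i1 had 29.2, 30.8 and 43.9 FPKM in root, stem and leaf against 0.106 in flower, the smallest flower value above 0 among the 68. It had 14.0 leaf reads for each flower read. Its flower value was below 0.223 FPKM, the median value of 1 flower read over low contigs. That median does not allow for the length of this contig, so it does not give the contig's flower reads, which may be very few. Contig c143721_g1_i1 was highest in stem, with 33.3 FPKM in root, 87.8 in stem and 45.7 in leaf against 0.354 in flower. Contig c157320_g3_i1 was highest in leaf, at 192, 122 and 524 FPKM in root, stem and leaf against 3.90 in flower. Its gap of 4.65 on the log2 scale became 4.86 when the isoforms of gene c157320_g3 were summed.

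Listed at 0 in flower were 3 contigs. Besides c146533_g1_i1 these were c144039_g4_i1, with 91.5 FPKM in root, 65.1 in stem and 23.6 in leaf, and c24446_g1_i1, with 20.4, 91.3 and 109 FPKM in root, stem and leaf. The weakest vegetative level was thus that of leaf in one and that of root in the other. Both stayed close to the level minimum of 20 FPKM in that tissue. A listed 0 can stand for a failed estimate, so no fold is given for these 3 contigs.

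**Figure D3:**
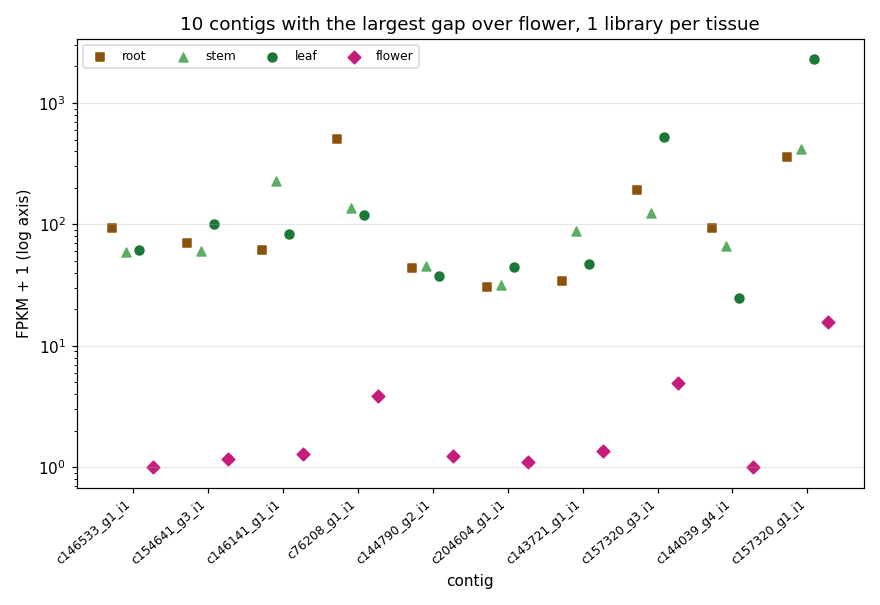
Levels of the 10 contigs with the largest gap between the lowest vegetative tissue and flower, as FPKM + 1 on a log axis, with 1 point per tissue library (root, stem, leaf, flower). The flower points lie between 0 and 14.7 FPKM, while all vegetative points are at 23.6 FPKM or more.

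The most abundant contig was low in flower only by comparison. Contig c29967_g1_i1 had 27425 FPKM in root, 9099 in stem and 15917 in leaf against 970 FPKM in flower, a gap of 3.23 on the log2 scale. It ranked 1 among all contigs of the root library and 1 in stem, 22 in leaf and still 33 in flower. This contig held 68.6% of what the 68 contigs summed to in root, 47.4% of it in stem, 46.0% in leaf and 72.7% for flower. The 68 together made up 4.46% of all FPKM in the root library, 2.81% of those in stem, 0.482% in leaf and 0.192% in flower. Without c29967_g1_i1 these shares were 1.40%, 1.48%, 0.260% and 0.0523%. The leaf shares are set by component c157498, which held most of the leaf sum, and with that component left out of the sums the leaf share of the 68 was 2.00%.

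Below that contig, c141894_g1_i1 was a stem and root transcript by level, with 1869 FPKM in root, 3940 in stem and 268 in leaf against 28.8 in flower. It ranked 3 in stem. Contig c118946_g1_i1 had 357, 144 and 5119 FPKM in root, stem and leaf against 13.0 in flower, and c3229_g1_i1 had 144, 128 and 2739 FPKM in root, stem and leaf against 14.5 in flower. Both were thus chiefly leaf contigs that also cleared the rule in root and stem. Contig c66125_g1_i1 had the same shape at a lower level, with 57.0, 58.3 and 987 FPKM in root, stem and leaf against 4.92 in flower. Contig c159874_g1_i1 was chiefly a root contig, with 826 FPKM in root, 230 in stem and 123 in leaf against 4.97 in flower. Of the 100 highest contigs of each library, the 68 supplied 10 for root, 5 for stem, 4 for leaf and 1 for flower. The rule asked for high vegetative and low flower levels, so these counts follow in part from it. The same counts over the 3255 background contigs were not made.

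The rule did not name an order of root, stem and leaf, and the contigs differed in it. It did use the lowest of the 3, which had to reach 20 FPKM and 8-fold over flower, so it bears on the order. The lowest was root in 26.5%, stem in 42.6% and leaf in 30.9% of the 68, against 39.1%, 52.6% and 8.33% of the background. The shares here and the differences in the next paragraphs are therefore a description. Root was the highest vegetative tissue for 34 of 68, stem for 6, or 8.82%, and leaf for 28, or 41.2%. Over the 3255 background contigs the highest was root in 23.1%, stem in 4.98% and leaf in 71.9%. Root at the top, then stem, then leaf was the most frequent order, in 19 contigs or 27.9%, against 6.42% of the background. The 2 orders with leaf at the top had 14 contigs each, or 20.6%, against 35.9% of the background for leaf, root, stem and 36.0% for leaf, stem, root. These counts depended on scaling. Over the 3255 contigs the median of leaf over flower was 0.89 on the log2 scale as deposited and 0.09 with median-of-ratios factors. With those factors root was at the top in 57.4% of the same 68 contigs, stem in 19.1% and leaf in 23.5%, and the background in 45.3%, 17.8% and 36.9%. With library sums set equal the shares of the 68 were 48.5% in root, 47.1% in stem and 4.41% in leaf, against 39.4%, 58.1% and 2.46% of the background. With component c157498 left out of those sums they were 45.6%, 35.3% and 19.1%, against 33.6%, 43.0% and 23.3% of the background. The share with root at the top was thus above that of the background as deposited and in these 3 scalings. The share with stem at the top was below it in both scalings by sums, and that with leaf at the top was above it only with the sums that c157498 dominates.

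Most contigs differed by more than 2-fold within the plant body. The 3 vegetative levels lay within 2-fold of each other in 20 contigs, or 29.4%, against 35.1% of the background, and their median range was 1.43 on the log2 scale against 1.26. At least 1 pair of vegetative tissues differed by 4-fold or more in 18 contigs, or 26.5%, against 21.5% of the background. The median of root over stem was 0.39 on the log2 scale, against 0.16 over the background, that of root over leaf 0.12, against -0.74, and that of stem over leaf -0.37, against -0.89. The correlation of log2(FPKM + 1) across the 68 contigs, which share libraries and in part sequence, had a Pearson's r of 0.83 for root and stem, 0.61 for root and leaf and 0.69 for stem and leaf. Over the background it was 0.69, 0.50 and 0.70. Contig c29967_g1_i1, far above the rest in all 3 tissues, can weigh more on r among 68 contigs than among the 3255. The correlation without it was not computed.

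Root was at least 4-fold over stem in 4 contigs, where the background had 1.63%. They were c126373_g1_i1 with 450 FPKM in root against 94.5 in stem, c154087_g1_i1 with 255 against 53.7, c150341_g1_i1 with 529 against 114, and c68682_g1_i1, named after its values were seen, with 313 against 57.1. Root was at least 4-fold over leaf in 7 contigs, against 1.35% of the background, with the widest difference in c154087_g1_i1 at 255 FPKM in root against 25.0 in leaf. Stem was at least 4-fold over root only in c24446_g1_i1 (background 1.44%), and over leaf only in c141894_g1_i1 (background 0.338%).

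Leaf was at least 4-fold over root in 6 contigs (background 14.9%) and over stem in 8 (background 11.9%). The largest of these were c118946_g1_i1, c3229_g1_i1 and c66125_g1_i1, whose leaf levels were above root by 3.84, 4.24 and 4.09 on the log2 scale. Their leaf reads numbered 13.3, 6.39 and 6.77 for each flower read, so these leaf levels did not rest on fewer reads than the flower levels. At the other end, c157463_g3_i1 had 30.7, 28.7 and 28.0 FPKM in root, stem and leaf against 1.56 in flower, the narrowest vegetative range at 0.13. Contig c47978_g1_i1, with 83.9, 76.8 and 69.1 FPKM in root, stem and leaf against 6.98 in flower, was similarly even, with a range of 0.28.

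The 38 contigs that fell outside the rule for named contigs included the lowest stem and leaf values of the 68. Root was their highest vegetative tissue in 19, stem in 1 and leaf in 18. Their root values ran from 25.9 to 313 FPKM (median 58.9), stem from 21.6 to 134 (median 44.5), leaf from 20.4 to 345 (median 78.6) and flower from 0.248 to 12.9 (median 1.93). In flower 31 of the 38 were below 5 FPKM and 3 below 1. Their gaps over flower ran from 3.11 to 4.43 on the log2 scale.

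**Figure D4:**
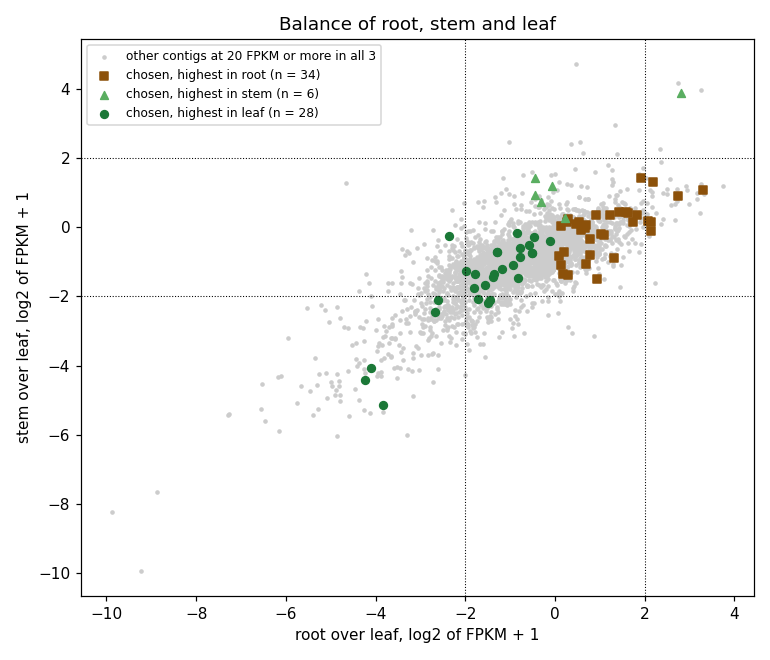
Stem over leaf against root over leaf, each as log2 of FPKM + 1, for the 68 chosen contigs (coloured by their highest vegetative tissue) and for the other contigs at 20 FPKM or more in root, stem and leaf (grey). Dotted lines mark 4-fold; 3 leaf-highest contigs lie at the lower left with leaf above root by 3.84 to 4.24, and c141894_g1_i1 lies alone at the upper right.

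Some components supplied several contigs. There were 9 components with 2 or more of the 68, holding 20 contigs, and in 9 of 9 all chosen contigs of the component had the same highest vegetative tissue. Such contigs share sequence and can share reads, so they are not independent cases. Agreement within components was not counted over the background, where leaf alone was the highest vegetative tissue in 71.9% of contigs. Component c157320 supplied 4, each highest in leaf. Its gene g1 had 359 FPKM in root, 416 in stem and 2291 in leaf against 14.7 in flower. Of its gene g3, isoform i1 is described above, i2 had 44.1, 63.2 and 273 FPKM in root, stem and leaf against 1.80 in flower, and i3 had 48.6, 45.7 and 83.9 FPKM against 1.27 in flower. Summed over its isoforms, gene c157320_g3 had 285 FPKM in root, 231 in stem and 882 in leaf against 6.97 in flower.

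Component c153184 supplied 2 isoforms of gene g2, each highest in root and among the most abundant of the 68. Isoform i5 had 1463, 913 and 923 FPKM in root, stem and leaf against 72.2 in flower, and i2 had 974, 532 and 415 FPKM against 47.2 in flower. Isoform i5 ranked 1455 among all contigs of the flower library. Component c150341 supplied 2 genes, g1 with 529, 114 and 212 FPKM in root, stem and leaf against 6.19 in flower, and g4 with 318, 97.9 and 258 FPKM against 3.56 in flower. Component c157502 supplied c157502_g1_i2, another root-dominated contig, with 272, 67.3 and 60.4 FPKM in root, stem and leaf against 2.24 in flower. In component c156080, c156080_g3_i1 was highest in stem, with 33.6, 82.2 and 35.1 FPKM in root, stem and leaf against 2.05 in flower.

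The remaining contigs of the same genes were not chosen by the rule, although they share sequence with the chosen ones. Of the 17 genes with several contigs, 2 had all of them chosen, and the other 15 held 36 further contigs. Flower was the lowest tissue in 18 of the 36 and the highest in 6. Flower was the lowest in 15.3% and the highest in 8.61% of all contigs outside the heat shock and R gene tables, whose levels differ from those of the 36. Most were low: 19 stayed below 20 FPKM in each vegetative tissue, and 7 reached 20 FPKM in all 3. Of these 7, flower was the lowest in 6, at least 4-fold below the lowest vegetative tissue in 5, and the highest in 1. Over the 3255 background contigs flower was the lowest in 40.8% and at least 4-fold below in 5.01%. The 7 are isoforms of genes with a chosen contig, and c153184_g2_i1 and c153184_g2_i4 among them share a gene. They are thus not independent cases, and the counts are a description.

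The contigs of these 7 with the smallest gaps, named after their values were seen, were in genes c125478_g1 and c156936_g3. Isoform c125478_g1_i1 was chosen, with 67.8, 55.6 and 73.0 FPKM in root, stem and leaf against 5.07 in flower. Its sister c125478_g1_i2 had almost the same vegetative levels, 67.4, 48.4 and 80.3 FPKM, but 111 FPKM in flower. With both summed, the gene had 135, 104 and 153 FPKM in root, stem and leaf against 117 in flower, and no longer met the rule. In c156936_g3, the chosen isoform i2 had 194, 78.0 and 90.3 FPKM in root, stem and leaf against 4.67 in flower, and i1 had 53.7, 40.7 and 80.4 FPKM against 35.2 in flower. Of the 17 genes with several contigs, 11 met the rule with their isoforms summed and 6 did not. Of the 6, c148508_g3 and c157557_g2 had summed gaps of 2.92 and 2.66 on the log2 scale, c156936_g3 of 1.55, c156420_g2 of 0.91, c157192_g2 of 0.62 and c125478_g1 of -0.16. How the authors' estimator divided reads among isoforms was not stated, so single isoform levels are uncertain.

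**Figure D5:**
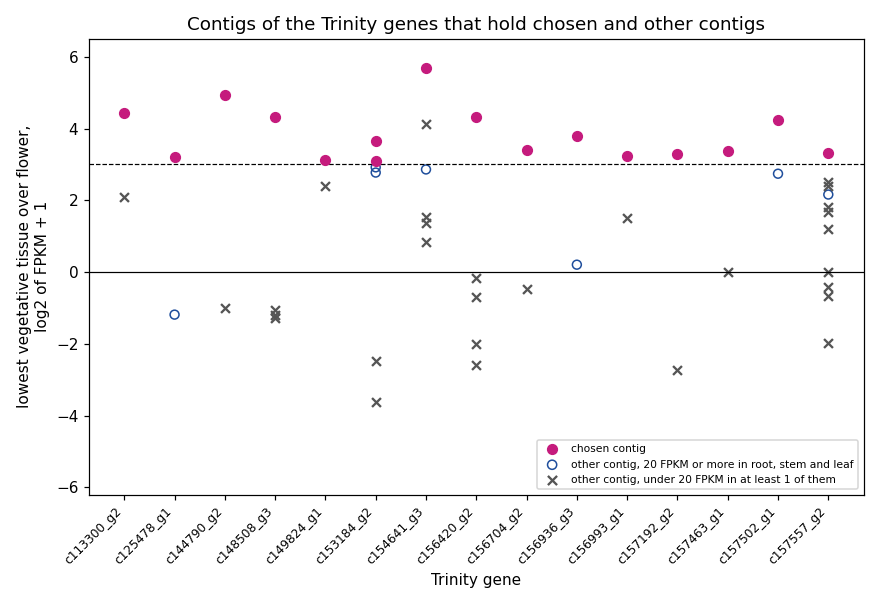
Gap between the lowest vegetative tissue and flower, as log2 of FPKM + 1, for each contig of the 15 assembler genes that hold both chosen contigs (filled) and other contigs (open circles at 20 FPKM or more in root, stem and leaf, crosses otherwise). The dashed line is the 8-fold threshold of the rule at 3; 1 open circle, c125478_g1_i2 at -1.19, lies far below 0.

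At the threshold, the 3 contigs just inside were c153184_g2_i2, c3229_g1_i1 and c157558_g2_i1, with gaps of 3.11, 3.06 and 3.01 on the log2 scale. The last had 147, 66.1 and 48.6 FPKM in root, stem and leaf against 5.14 in flower. Just outside were c145507_g2_i1, with 48.7, 33.0 and 42.1 FPKM in root, stem and leaf against 3.26 in flower, c150854_g2_i4, with 29.4, 29.2 and 30.4 FPKM against 2.80, and c157584_g1_i1, with 158, 142 and 157 FPKM against 17.0. Their gaps were 2.99 each. Among the R genes, PEQU_41464 on c151802_g4_i1, named after its values were seen, had 21.9, 17.8 and 27.7 FPKM in root, stem and leaf against 0.778 in flower, a gap of 3.40, and missed the level minimum in stem.

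The same rule was applied with each vegetative tissue in the place of flower. Low flower gave 68 contigs of 3255, or 2.09%, low root 177 of 3602, or 4.91%, low stem 4 of 2938, or 0.136%, and low leaf 7 of 2715, or 0.258%. The median gap was 3.56 on the log2 scale for low flower, 4.36 for low root, 3.11 for low stem and 4.70 for low leaf. These medians include contigs listed at 0 in the low tissue, whose gap only restates the level of the other tissues. For low leaf the median itself is that of a contig listed at 0 in leaf, so it is not a measured fold. Listed at 0 in the low tissue were 3 contigs for low flower, 35 for low root, 0 for low stem and 6 for low leaf. A leaf value of 0 carries the least weight, since leaf had the fewest reads at a given FPKM. With median-of-ratios factors low flower gave 49 contigs, low root 162, low stem 1 and low leaf 13, and with sums set equal without c157498 the counts were 44, 200, 0 and 21, in the same order as deposited. With all of each library in the sums the order changed, to 6 for low flower, 68 for low root, 0 for low stem and 190 for low leaf.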

How the data were processed

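RNA of 4 tissues, 1 library each, was sequenced on an Illumina HiSeq 1500, and the reads were assembled de novo with Trinity r2013-02-25 at a minimum contig length of 200 nucleotides, per the series' design text. The values are FPKM by the authors, per the name of the deposited table and the headers of the other 2. The submitters' processing notes name edgeR and DESeq without a role. No mapper, FPKM estimator or library total is given in the sources used here. The leaf sum was 7179830 FPKM against 695751 in flower, and 1731140 against 688944 without component c157498. The median-of-ratios factor was 1.54 for leaf and 0.870 for flower. Deposited values may therefore not be on the same scale, by less than the full sums would give.

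Contigs were chosen by the rule stated in the report, with a pseudocount of 1, and left out where named in the heat shock or R gene table. The contigs, the lists and the rules of size were chosen with earlier results of these data known. No test was possible with 1 library per tissue. Marker lists for the tissues could not be applied, since the tables annotate contigs only as heat shock proteins or R genes. Contigs at 20 FPKM or more in root, stem and leaf served as background, and a vegetative difference was counted at 4-fold. Named contigs were the 10 with the largest gap over flower, the 10 with the highest vegetative mean, those listed at 0 in flower, the 3 that most exceeded the next vegetative tissue in each of root, stem and leaf, the 3 with the smallest vegetative range, the members of the 3 components with most members (ties by summed level), and the 3 on either side of the threshold.

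The relative number of reads at equal FPKM came from 154716 genes with a single contig. Those with a stem to root ratio within 0.02 log2 units of 6 ratios of small whole numbers, 6483 contigs, set a unit of 1 root read, and flower and leaf values were divided by it. Contigs at multiples of these numbers can enter and raise the value of 1 read. Python 3.11.15 and pandas 2.3.3 were used. Alternatives were 3 scalings, other pseudocounts, level minimums and folds, summed isoforms and single-contig genes.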

Additional observations from a re-analysis of the deposited data

How the results depend on the processing

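Members were chosen again under each alternative. In the values below, counts of contigs highest in root, stem and leaf are called tops, counts of contigs at least 4-fold apart within the plant body are called pairs, and the mirrored rule is named by its low tissue. The median gap, whose minimum each setting's own rule fixes, ran from 2.85 at 4-fold to 4.43 at 16-fold on the log2 scale. Tops and pairs are listed without a share of the background under the same setting. Scaling moved the background as well. As deposited, root was at the top in 23.1% of the 3255 background contigs and leaf in 71.9%. With median-of-ratios factors these shares were 45.3% and 36.9%. A shift in tops or pairs is therefore not shown to be particular to the chosen contigs.

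With median-of-ratios factors 49 contigs were chosen, 45 of them among the 68; the tops were 21, 10 and 18, the pairs root over leaf 4 and leaf over stem 3, low stem 1 and low leaf 13. With library sums set equal there were 6 contigs in 5 genes, 0 listed at 0 in flower, tops of 1, 3 and 2, low root 68, low stem 0 and low leaf 190, and each pair count was 0 except stem over leaf at 1. Without c157498 in those sums there were 44 contigs in 41 genes, 5 at 0 in flower, tops of 14, 17 and 13, pairs of 1 for root over stem, 2 for stem over root, 4 for root over leaf, 1 for leaf over root, 3 for stem over leaf and 1 for leaf over stem, low stem 0 and low leaf 21. The leaf share of the sum was 2.00% without that component.

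With a pseudocount of 5 there were 22 contigs in 20 genes, 1 at 0 in flower, tops of 11, 2 and 9, pairs of 1 for root over stem, 0 for stem over root, 4 for root over leaf, 2 for leaf over root and 3 for leaf over stem, low root 65, low stem 0 and low leaf 1. A level minimum of 10 gave 122 contigs in 117 genes, 16 at 0 in flower, tops of 58, 10 and 54, pairs of 8 for root over stem, 12 for leaf over root and 14 for leaf over stem, low root 273 and low leaf 34. A minimum of 50 gave 33 contigs in 32 genes, 1 at 0 in flower, tops of 18, 3 and 12, pairs of 0 for stem over root and 5 for leaf over stem, low root 66 and low leaf 1. No minimum gave 167 contigs in 161 genes, 50 at 0 in flower, tops of 76, 14 and 77, pairs of 10 for root over stem, 15 for root over leaf, 16 for leaf over root and 19 for leaf over stem, low root 308 and low leaf 63.

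At 4-fold there were 163 contigs in 150 genes with tops of 80, 19 and 64, pairs of 6 for stem over root, 13 for root over leaf, 19 for leaf over root, 5 for stem over leaf and 28 for leaf over stem, low root 292 and low stem 10. At 16-fold there were 24 contigs in 22 genes with tops of 7, 3 and 14, pairs of 0 for root over stem, 3 for root over leaf, 3 for leaf over root, 0 for stem over leaf and 3 for leaf over stem, low root 108 and low stem 0. With isoforms summed the number of genes was 67, with stem over root 2 and low stem 2, and with single-contig genes only there were 47 contigs, 16 of them highest in leaf, and low stem 2. With a pseudocount of 0.1 no count moved by over 1.5 times. Under the other alternatives, counts of these kinds that are not listed also moved by no more than that. Leaving a library out of the rule, an alternative chosen after seeing the data, gave 216 contigs without leaf, 177 without stem and 112 without root.

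Apart from stricter or looser cut-offs, whose counts differ by construction, the cause of these shifts was not tested. No paired analysis was possible because each tissue has 1 library. Leaf values rested on the fewest reads at a given FPKM. Whether sequencing depth or the scale of the leaf values set this was not tested.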
